A study of Homo sapiens with 16 samples.

Results

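The 10 genes described here are the phosphatases DUSP4, DUSP5 and DUSP6, the Sprouty inhibitors SPRY2 and SPRY4, the related inhibitors SPRED1 and SPRED2, and the transcription factors ETV4, ETV5 and EGR1. They were taken by name as protein-coding genes from both processed tables, where they are 10 of 60560 genes, of which 19914 are protein-coding. The set was chosen by the measured fold change of DUSP6 in HCT116 cells treated with andrographis, the largest fall there of any gene other than a histone gene. The values of that comparison are given as a description with no test. In that comparison DUSP6 stood second, with a log2 fold change of -2.10, between the histone genes H2BC13 at -2.34 and H2AC19 at -1.79. The next genes that are not histones were SOX4 at -1.77 and S100A4 at -1.71.

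RNA was sequenced from 2 established human colorectal cancer cell lines, SW480 and HCT116, after 16 h of treatment. In 1 experiment the cells received a curcumin complex extracted from turmeric, Curcuma longa, which also holds turmeric oils and is called curcumin here. In the other they received an extract of the herb Andrographis paniculata, called andrographis here. Each experiment had its own non-treated controls of both lines, so there were 4 groups of 2 libraries per experiment and 16 libraries in all. Each line descends from 1 tumour. Nothing in the labels states that libraries of 1 group were separate cultures, so the p-values measure only the spread between these libraries. Control columns of the andrographis table carry the letter D, which was taken to stand for DMSO, and the sign of each andrographis fold change depends on this.

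Levels are given as FPKM, fragments per kilobase of transcript scaled to library depth, which is a scale per gene length and allows levels of different genes to be set side by side. Fold changes are log2 differences of FPKM + 1 and understate the change of genes with low levels. The approximate depth was 15.7 to 32.3 M reads (megareads) per library with andrographis (median 24.6 M) and 9.4 to 23.1 M with curcumin (median 19.3 M). Of 8 epithelial markers, 7 reached 1 FPKM, whereas only 1 of 6 immune and 1 of 7 stromal and endothelial markers did. The summed level of the immune markers ran from 0.321 to 1.82 FPKM and that of the stromal and endothelial markers from 0.76 to 8.65 FPKM over all groups. Replicate libraries of the andrographis experiment lay closer together in HCT116 than in SW480. The median absolute log2 difference between the 2 libraries of a group was 0.08 and 0.06 in HCT116 control and treated cells, against 0.19 and 0.24 in SW480.

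In cells with active RAS, the kinases RAF, MEK and ERK are switched on in turn, and ERK then drives the transcription of immediate early genes and of its own inhibitors. DUSP6 is a cytoplasmic phosphatase that removes the activating phosphates from ERK, DUSP4 and DUSP5 do so in the nucleus, and Sprouty and SPRED proteins act further up, between the receptors, RAS and RAF. ETV4 and ETV5 are ETS family transcription factors that ERK signalling induces, and EGR1 is a zinc finger transcription factor induced within minutes by ERK through serum response factor. Because their transcripts follow ERK output, these genes are widely read as a gauge of the pathway in colorectal cancer cells.

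The promoters show what the proximal sequence of these genes holds in common and where it differs. Promoter sequences from RefSeq (build GRCh38.p14) were matched for 6 of the 10 genes, in 9 windows of 250 bases before to 50 bases after a transcription start. The 250 bases before the start are shown for DUSP6, the gene around which the set was drawn up, for SPRY2, whose level differed most between the untreated lines among the Sprouty and SPRED genes in the curcumin experiment, and for EGR1, which had the highest mean level in untreated SW480 cells. DUSP6 lies at chr12:89347235-89352501 and its window at chr12:89352502-89352751 on the minus strand. SPRY2 lies at chr13:80335976-80341126 and its first window at chr13:80341127-80341376 on the minus strand. EGR1 lies at chr5:138465479-138469303 and its window at chr5:138465229-138465478 on the plus strand. Sequences run 5′ to 3′ in the direction of transcription, and capitals mark a CArG box, the site of serum response factor, or the ETS motif CCGGAA.
DUSP6: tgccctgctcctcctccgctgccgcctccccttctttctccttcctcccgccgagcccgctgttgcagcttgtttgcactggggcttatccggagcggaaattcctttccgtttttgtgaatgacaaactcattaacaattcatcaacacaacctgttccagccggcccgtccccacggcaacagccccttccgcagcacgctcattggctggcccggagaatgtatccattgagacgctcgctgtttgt
SPRY2: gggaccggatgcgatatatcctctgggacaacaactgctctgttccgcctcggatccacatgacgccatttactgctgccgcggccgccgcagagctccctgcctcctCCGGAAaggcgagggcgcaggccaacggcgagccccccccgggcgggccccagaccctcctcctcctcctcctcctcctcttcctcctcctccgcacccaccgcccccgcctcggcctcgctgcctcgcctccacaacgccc
EGR1: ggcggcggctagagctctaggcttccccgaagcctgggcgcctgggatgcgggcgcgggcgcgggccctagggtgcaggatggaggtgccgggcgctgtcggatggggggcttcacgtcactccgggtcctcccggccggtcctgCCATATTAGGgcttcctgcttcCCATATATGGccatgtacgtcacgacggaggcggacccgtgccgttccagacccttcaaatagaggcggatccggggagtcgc

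EGR1 held 2 CArG boxes, which began 105 and 83 bases before the start. None of the other 5 matched genes held a CArG box, and 1.29% of 35116 human promoter windows of the same length did. The ETS motif CCGGAA was found once, in SPRY2, 142 bases before the start, and it occurs in 17.2% of all windows. The AP-1 motif TGAGTCA was found once, 6 bases before the second start of SPRED2, against 4.95% of all windows. The GC box GGGCGG was present in 4 of the 6 genes, SPRY2, SPRY4, SPRED1 and SPRED2, and in 45% of all windows. These shares are per window, whereas the 6 genes have 9 windows. A gene with several windows had more chances to hold a motif, so the 2 are not directly comparable. Motifs were searched on both strands, and a match is a description of these letters, not a measured binding site.

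The first question was how the feedback genes stood in untreated cells of the 2 lines. In the controls of the curcumin experiment 8 of the 10 genes differed between SW480 and HCT116 in limma, where 62.7% of the 16341 genes tested differed. In SW480 4 were higher, against 33% of all genes, and 4 were lower, against 29.7%. The phosphatases split: DUSP4 and DUSP5 were higher in HCT116 and DUSP6 was higher in SW480. EGR1, ETV4 and SPRY2 were higher in SW480, and SPRY4 and SPRED1 were higher in HCT116. The median log2 difference of the 10 genes was 0.02, against 0.01 over all genes tested.

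DUSP4 was measured at 7.8 and 8.08 FPKM in the SW480 controls and at 48.3 and 50.7 FPKM in the HCT116 controls. The log2 difference was -2.50 (SE 0.06, adjusted p = 3.12e-07). DUSP5 followed the same order, with 28.1 and 25.5 FPKM in SW480 and 116 and 133 FPKM in HCT116. Both nuclear phosphatases were thus several-fold more abundant in HCT116, and the libraries of the 2 lines did not overlap. The log2 difference of DUSP5 was -2.17 (SE 0.10, adjusted p = 7.57e-06). DUSP6 went the opposite way, with 92.8 and 93.7 FPKM in SW480 and 53.1 and 61.1 FPKM in HCT116. Its log2 difference was 0.70 (SE 0.07, adjusted p = 0.000229), and every SW480 library lay above both HCT116 libraries.

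ETV4, the member with the largest excess in SW480, was measured at 72.6 and 71.8 FPKM there and at 12.7 and 14.7 FPKM in HCT116 (log2 difference 2.32, SE 0.07, adjusted p = 1.34e-06). Its relative ETV5 was at 30.6 and 30.4 FPKM in SW480 and 29 and 30 FPKM in HCT116, and the log2 difference of 0.04 (95% interval -0.07 to 0.16) did not pass the test. The closely related factors thus stood differently between the lines. SPRY2 was measured at 14.2 and 14.4 FPKM in SW480 against 2.79 and 3.35 FPKM in HCT116, a log2 difference of 1.92 (SE 0.08, adjusted p = 3.83e-06). SPRY4 was at 23.1 and 23.2 FPKM in SW480 against 36.6 and 34.4 FPKM in HCT116, a log2 difference of -0.59 (SE 0.05, adjusted p = 0.00013). The 2 Sproutys were therefore ordered oppositely by line.

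EGR1 stood at 178 ± 5.96 FPKM (SD, n = 2) in SW480 and 94.9 ± 6.95 FPKM in HCT116, a log2 difference of 0.91 (limma adjusted p = 0.000194). SPRED1 stood at 8.36 ± 0.0235 and 13.6 ± 0.774 FPKM, a log2 difference of -0.64 (limma adjusted p = 0.000712). SPRED2 was near 21.8 FPKM in both lines, with a log2 difference of 0.00 (95% interval -0.15 to 0.16) that did not pass the test. The SPRED genes, which encode inhibitors that bind the RAS regulator neurofibromin, thus differed in 1 of 2 cases.

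Set out by level, the order in untreated SW480 of the curcumin experiment was EGR1 (178 FPKM), DUSP6 (93.2), ETV4 (72.2), ETV5 (30.5), DUSP5 (26.8), SPRY4 (23.2), SPRED2 (21.8), SPRY2 (14.3), SPRED1 (8.36) and DUSP4 (7.94). No neighbours in that order overlapped between libraries. In untreated HCT116 of the same experiment it was DUSP5 (124 FPKM), EGR1 (94.9), DUSP6 (57.1), DUSP4 (49.5), SPRY4 (35.5), ETV5 (29.5), SPRED2 (21.8), ETV4 (13.7), SPRED1 (13.6) and SPRY2 (3.07). Only ETV4 and SPRED1 overlapped there. DUSP4 therefore stood last in SW480 and above SPRY4 in HCT116, while SPRY2 stood last in HCT116.

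The controls of the andrographis experiment, whose table was scaled separately, gave another picture of HCT116. DUSP6 led at 115 ± 1.55 FPKM (SD, n = 2), followed by EGR1 at 72.5 ± 1.08 and DUSP5 at 31.9 ± 0.745 FPKM, and no neighbours overlapped down to SPRED1 (6.87) and SPRY2 (6.05). In SW480 EGR1 (142 ± 38.9 FPKM) and DUSP6 (133 ± 21.9) overlapped at the top, DUSP5 (38.4 ± 16.2) overlapped with ETV5 (36.4 ± 1.43), and DUSP4 (4.94 ± 1.4) overlapped with SPRED1 (3.83 ± 0.42) at the bottom. The log2 differences between SW480 and HCT116 controls in this experiment, given with no test, were -1.73 for DUSP4, 0.20 for DUSP5, 0.20 for DUSP6, 1.52 for ETV4, 0.30 for ETV5 and 0.93 for EGR1. They were 0.34 for SPRY2, 0.11 for SPRY4, -0.71 for SPRED1 and -0.30 for SPRED2. Of the 8 genes that differed between the lines in the curcumin experiment, DUSP4, DUSP6, SPRY2, SPRED1, ETV4 and EGR1 had the same sign here, and DUSP5 and SPRY4 had the opposite sign. The 2 experiments differ in table and controls, and these cannot be told apart.

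The second question was what andrographis did to the feedback genes. In SW480, whose libraries did not choose the genes, 1 of the 10 fell and none rose at an adjusted p below 0.05 in limma. Of 12811 genes 7.28% were called, 3.08% up and 4.21% down. The spread in this test came from all 8 libraries of the experiment, so it was not free of the HCT116 libraries that chose the set. The gene that fell was DUSP6. At an unadjusted p below 0.05, 2 of the 10 were called, DUSP6 and SPRY4, where 26.2% of all genes were. The median log2 fold change of the 10 genes was -0.25, and that of all genes tested was -0.00. In HCT116 the median was -0.28, against -0.02 for all genes tested. The choice of the set already fixed DUSP6 as a falling gene there, so nothing is read from its being the 1 gene of the 10 called in HCT116, where 6.82% of all genes were (2.87% up, 3.95% down). RNA was taken from whole cultures, so fewer cells with a transcript and less of it per cell cannot be told apart.

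DUSP6 was measured at 148 and 117 FPKM in the SW480 controls and at 77.5 and 53.6 FPKM after andrographis. Both treated libraries lay below both controls, and the mean went from 133 ± 21.9 to 65.5 ± 16.9 FPKM (SD, n = 2). The log2 fold change was -1.02 (SE 0.19, 95% interval -1.48 to -0.56, limma adjusted p = 0.0313). The adjusted p was 0.0849 without control library 1 and 0.0702 without control library 2, with log2 fold changes of -0.85 and -1.19. It was 0.306 when only the 4 libraries compared were fitted and 0.0803 with no filter on low genes, both with a log2 fold change of -1.02, and it ran from 0.00795 to 0.306 over the 13 alternatives. In HCT116 DUSP6 was measured at 114 and 116 FPKM in the controls and at 26.3 and 25.9 FPKM after andrographis, a log2 fold change of -2.10. These HCT116 values chose the set, so nothing is read from them about the fall in SW480. The HCT116 libraries did enter the spread behind the SW480 test, where the SE was 0.19. With only the 4 SW480 libraries fitted the SE was 0.26, and 0% of all genes were called in either direction.

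**Figure D1:**
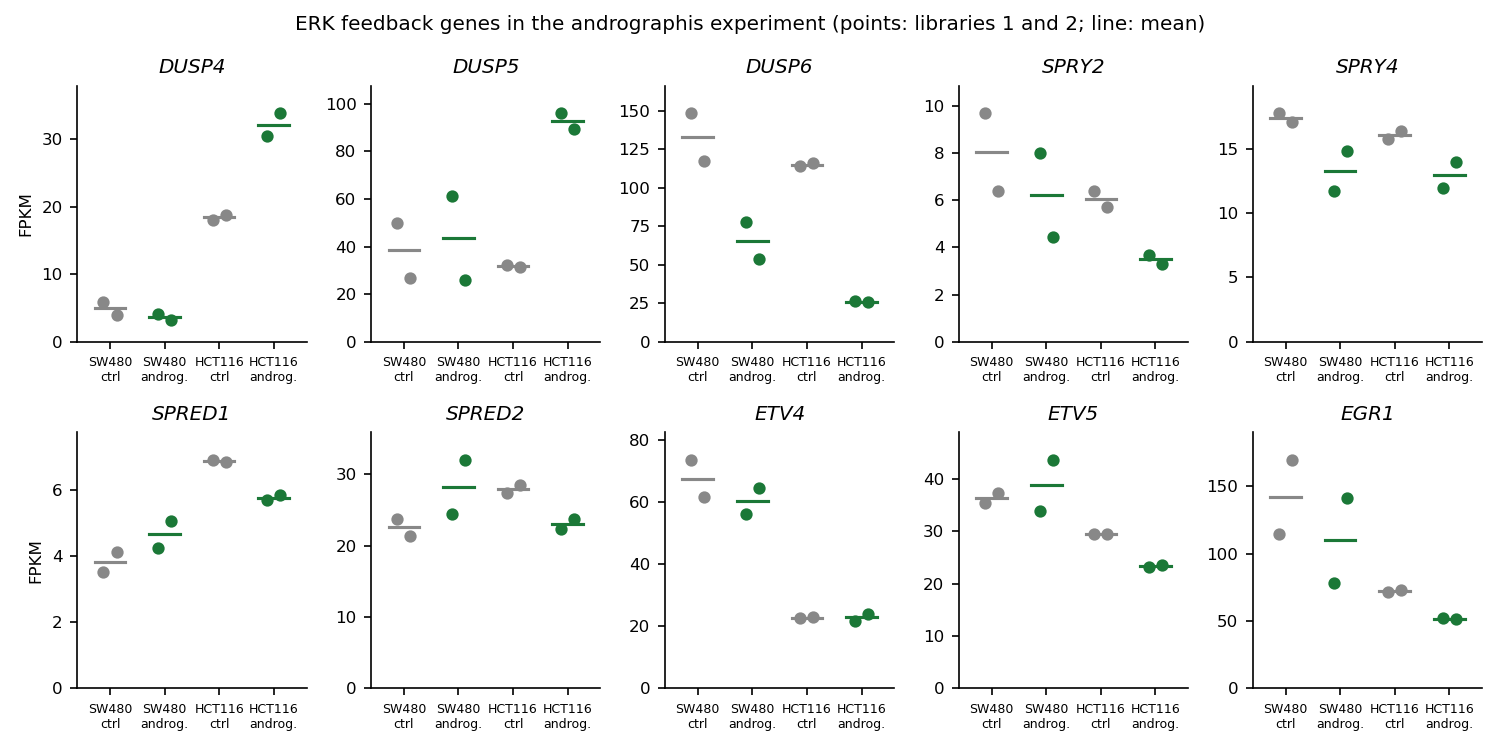
Level of each of the 10 genes in FPKM (vertical axes from 0, 1 panel per gene) in the 8 libraries of the andrographis experiment, with control libraries in grey, treated libraries in green and the mean of each group of 2 as a line. DUSP6 was lower in the treated libraries of both lines, whereas DUSP5 and DUSP4 lay above the controls in the treated HCT116 libraries.

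The nuclear phosphatases did not share this pattern. DUSP5, which anchors ERK in the nucleus as it dephosphorylates it, was measured at 49.8 and 27.0 FPKM in SW480 controls and at 61.0 and 25.9 FPKM in treated SW480 cells. Library 1 was high and library 2 low in both groups, the groups overlapped, and the log2 fold change of 0.12 (95% interval -0.85 to 1.09, limma adjusted p = 0.9) did not pass. In HCT116 DUSP5 was at 32.4 and 31.3 FPKM in the controls and 95.9 and 89.4 FPKM in treated cells, a log2 fold change of 1.51. The treated HCT116 libraries stood far above the controls, in the same libraries in which DUSP6 was low. DUSP4, which also acts on other MAP kinases, was at 5.94 and 3.95 FPKM in SW480 controls and at 4.06 and 3.19 FPKM after treatment (log2 fold change -0.35, limma adjusted p = 0.274). In HCT116 it was at 18.1 and 18.9 FPKM and then at 30.5 and 33.9 FPKM, a log2 fold change of 0.77. Its SW480 groups overlapped and its HCT116 groups did not.

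The 2 Sproutys, inhibitors of signalling from growth factor receptors, were measured at low to middle levels. SPRY4 was at 17.7 and 17.1 FPKM in SW480 controls and at 11.7 and 14.8 FPKM after andrographis, a log2 fold change of -0.37 (SE 0.14, 95% interval -0.70 to -0.05) that did not pass after adjustment (limma adjusted p = 0.146). HCT116 controls stood at 15.7 and 16.3 FPKM and treated HCT116 cells at 11.9 and 14 FPKM, a log2 fold change of -0.29. Treated libraries of SPRY4 lay below the controls in both lines. SPRY2 was at 9.68 and 6.41 FPKM in SW480 controls and at 8 and 4.46 FPKM after treatment, with overlapping groups and a log2 fold change of -0.34 (SE 0.26, limma adjusted p = 0.458). SPRY2 in HCT116 was at 6.4 and 5.71 FPKM and then at 3.68 and 3.32 FPKM, a log2 fold change of -0.65. The HCT116 groups of SPRY2 did not overlap.

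The SPRED genes lay on opposite sides of their controls in the 2 lines. SPRED2 was at 23.7 and 21.4 FPKM in SW480 controls and at 24.5 and 32 FPKM after andrographis, a log2 fold change of 0.30 (SE 0.14, limma adjusted p = 0.236). SPRED2 in HCT116 was at 27.3 and 28.5 FPKM and then at 22.4 and 23.7 FPKM, a log2 fold change of -0.27. The SW480 value of SPRED2 rested on the second treated library: without the first it was 0.49 (limma adjusted p = 0.0262), and over 13 alternatives the value ran from 0.12 to 0.49 and the adjusted p from 0.0262 to 0.582. SPRED1 was at 3.53 and 4.12 FPKM in SW480 controls and at 4.25 and 5.07 FPKM after treatment (log2 fold change 0.23, SE 0.12, limma adjusted p = 0.271). In HCT116 it was at 6.9 and 6.83 FPKM and then at 5.69 and 5.84 FPKM, a log2 fold change of -0.22. The difference between the lines was not tested for any of the 10 genes, since the HCT116 values chose the set. The share of all genes with treated libraries on opposite sides in the 2 lines was not counted.

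None of the 3 transcription factors passed in SW480. EGR1 was at 114 and 169 FPKM in SW480 controls and at 78.4 and 141 FPKM after andrographis, with overlapping groups and a log2 fold change of -0.40 (SE 0.29, limma adjusted p = 0.435). HCT116 cells had 71.7 and 73.2 FPKM in controls and 51.9 and 51.5 FPKM after treatment, a log2 fold change of -0.48 with groups that did not overlap. ETV5 was at 35.4 and 37.4 FPKM in SW480 controls and at 34 and 43.7 FPKM after treatment, a log2 fold change of 0.08 (SE 0.13, limma adjusted p = 0.772). In HCT116 ETV5 was at 29.5 FPKM in both controls and at 23.2 and 23.6 FPKM after treatment, a log2 fold change of -0.32. ETV4 had overlapping groups in both lines, with log2 fold changes of -0.16 in SW480 (SE 0.13, limma adjusted p = 0.505) and 0.01 in HCT116. Its HCT116 libraries were at 22.5 and 22.9 FPKM in controls and 21.8 and 24 FPKM in treated cells.

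Some epithelial markers moved in the same SW480 comparison, and not all in 1 direction. The summed level of the epithelial markers ran from 1569 to 1888 FPKM in SW480 controls and from 1179 to 1237 FPKM in treated cells. Of the 7 tested markers 3 fell, where 4.21% of all genes did. They were CDH1 by 1.14, KRT18 by 0.97 and KRT8 by 0.61 on the log2 scale. The others were not called, CLDN7 at -0.44, KRT19 at -0.22, EPCAM at 0.14 and CLDN4 at 0.39. In HCT116 the sum ran from 976 to 1037 FPKM in controls and from 1330 to 1344 FPKM in treated cells. There 4 of the 7 log2 fold changes were above 0. Only KRT19 was called, at 0.80, and CDH1 was at -0.49. The part of these markers in the values of the feedback genes was not tested.

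**Figure D2:**
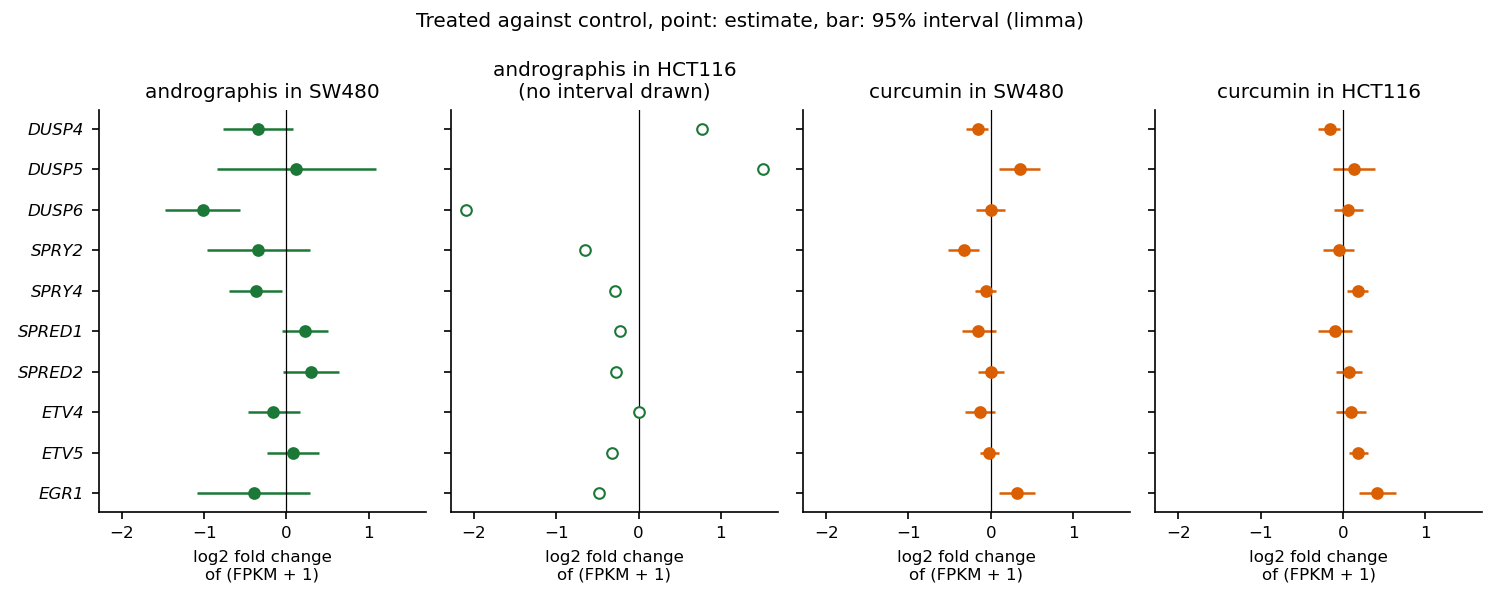
Log2 fold change of FPKM + 1, treated against control, for the 10 genes in the 4 comparisons (horizontal axis, in log2 units), with limma estimates as points and 95% intervals as bars, and no interval for the HCT116 andrographis comparison that chose the set. The DUSP6 interval in SW480 with andrographis (-1.48 to -0.56) lies wholly below 0, and both DUSP6 intervals with curcumin span 0.

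The balance of the 2 phosphatases DUSP5 and DUSP6, nuclear and cytoplasmic, was set out as their ratio within each library. The ratio does not depend on the scaling of a whole library, but it keeps any difference between the experiments that acts on single genes. In HCT116 the ratio of DUSP5 to DUSP6 was 0.285 and 0.27 in the andrographis controls and 3.65 and 3.45 after andrographis. DUSP6 led in every such control and DUSP5 in both treated libraries. The fall of DUSP6 there chose the set and is part of this ratio, so nothing is read from its change in HCT116. In SW480 the ratio was 0.336 and 0.23 in the andrographis controls and 0.788 and 0.484 after treatment, higher in both treated libraries while DUSP6 still led. HCT116 controls of the curcumin experiment had a ratio of 2.17 in both libraries, on the other side of 1 from the HCT116 controls of the andrographis experiment. SW480 controls of the curcumin experiment, at 0.303 and 0.272, lay within the range of those of the andrographis experiment. The 2 sets of HCT116 controls therefore differed in which phosphatase was the more abundant, and the SW480 controls did not. The experiments also differed in the kinds of genes tested. With andrographis 11875 of 12811 were protein-coding, and with curcumin 11431 of 16341. Whether this bears on the ratio was not tested.

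**Figure D3:**
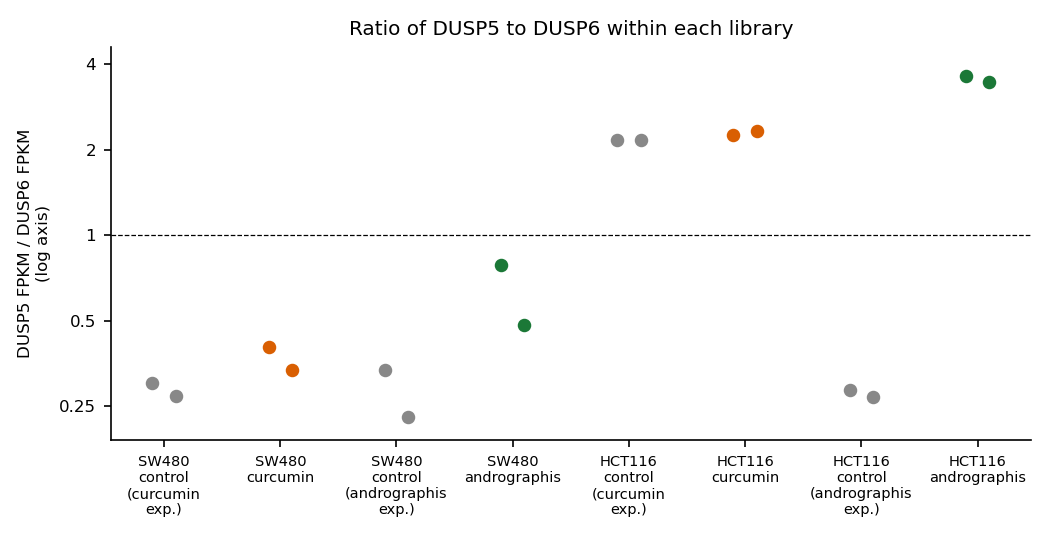
Ratio of DUSP5 to DUSP6 FPKM (log axis, no unit) in each of the 16 libraries, by group, with controls in grey, curcumin in orange, andrographis in green and a dashed line at equal levels. HCT116 controls stand at 2.17 in the curcumin experiment and at 0.285 and 0.27 in the andrographis experiment.

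The third question was what curcumin did to the same genes. None of the 10 genes passed at an adjusted p below 0.05 in limma in either line, where 0.306% of 16341 genes were called in SW480 and 0.171% in HCT116. At an unadjusted p below 0.05, 4 of the 10 were called in SW480 (EGR1 and DUSP5 up, SPRY2 and DUSP4 down), where 12.2% of all genes were. In HCT116 4 were called (EGR1, ETV5 and SPRY4 up, DUSP4 down), where 11.8% of all genes were. The median log2 fold change of the 10 genes was -0.04 in SW480 and 0.09 in HCT116, and those of all genes tested were -0.02 and -0.00. EGR1 and DUSP4 were thus on the same side in both lines, and neither passed after adjustment.

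EGR1 had the largest value in HCT116. It was measured at 90 and 99.9 FPKM in the HCT116 controls and at 128 and 127 FPKM after curcumin, a log2 fold change of 0.42 (SE 0.09, 95% interval 0.20 to 0.64, limma adjusted p = 0.172). In SW480 it was at 174 and 183 FPKM in controls and at 241 and 207 FPKM after curcumin, a log2 fold change of 0.32 (SE 0.09, 95% interval 0.10 to 0.54, limma adjusted p = 0.226). Every curcumin library of EGR1 lay above both of its controls. SPRY2 had the clearest difference downwards in SW480, at 14.2 and 14.4 FPKM in controls and 11.5 and 10.9 FPKM after curcumin, a log2 fold change of -0.33 (SE 0.08, limma adjusted p = 0.172). With a pseudocount of 10 in place of 1 it was -0.20 and passed (limma adjusted p = 0.046), and over 13 alternatives the adjusted p ran from 0.046 to 0.701. In HCT116 SPRY2 was at 2.79 and 3.35 FPKM and then at 3.04 and 2.82 FPKM, with overlapping groups.

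DUSP6 was level with its controls under curcumin. It was measured at 92.8 and 93.7 FPKM in SW480 controls and at 91.9 and 94.4 FPKM after curcumin, a log2 fold change of -0.00 (95% interval -0.18 to 0.17). In HCT116 it was at 53.1 and 61.1 FPKM and then at 58.7 and 60.2 FPKM, a log2 fold change of 0.06 (95% interval -0.11 to 0.24). Neither interval reaches a change of the size measured with andrographis in SW480, whose own interval ended at -0.56. The compounds were run in separate experiments, and a difference between them was not tested.

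DUSP5 was measured at 28.1 and 25.5 FPKM in SW480 controls and at 37.2 and 31.8 FPKM after curcumin (log2 fold change 0.35, SE 0.10, limma adjusted p = 0.25), and at 116 and 133 FPKM and then 132 and 140 FPKM in HCT116. DUSP4 had a log2 fold change of -0.16 in both lines (SW480 limma adjusted p = 0.311, HCT116 0.334). ETV5 and SPRY4, at 0.19 and 0.18 in HCT116, did not pass either (limma adjusted p = 0.218 and 0.277). ETV4, SPRED1 and SPRED2 lay between -0.15 and 0.10 in both lines. The difference of the curcumin change between SW480 and HCT116 passed for none of the 10 genes, and for 0% of the 16341 genes tested, and at an unadjusted p below 0.05 for 3 of the 10, SPRY4, ETV5 and SPRY2, against 8.21% of all genes.

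**Figure D4:**
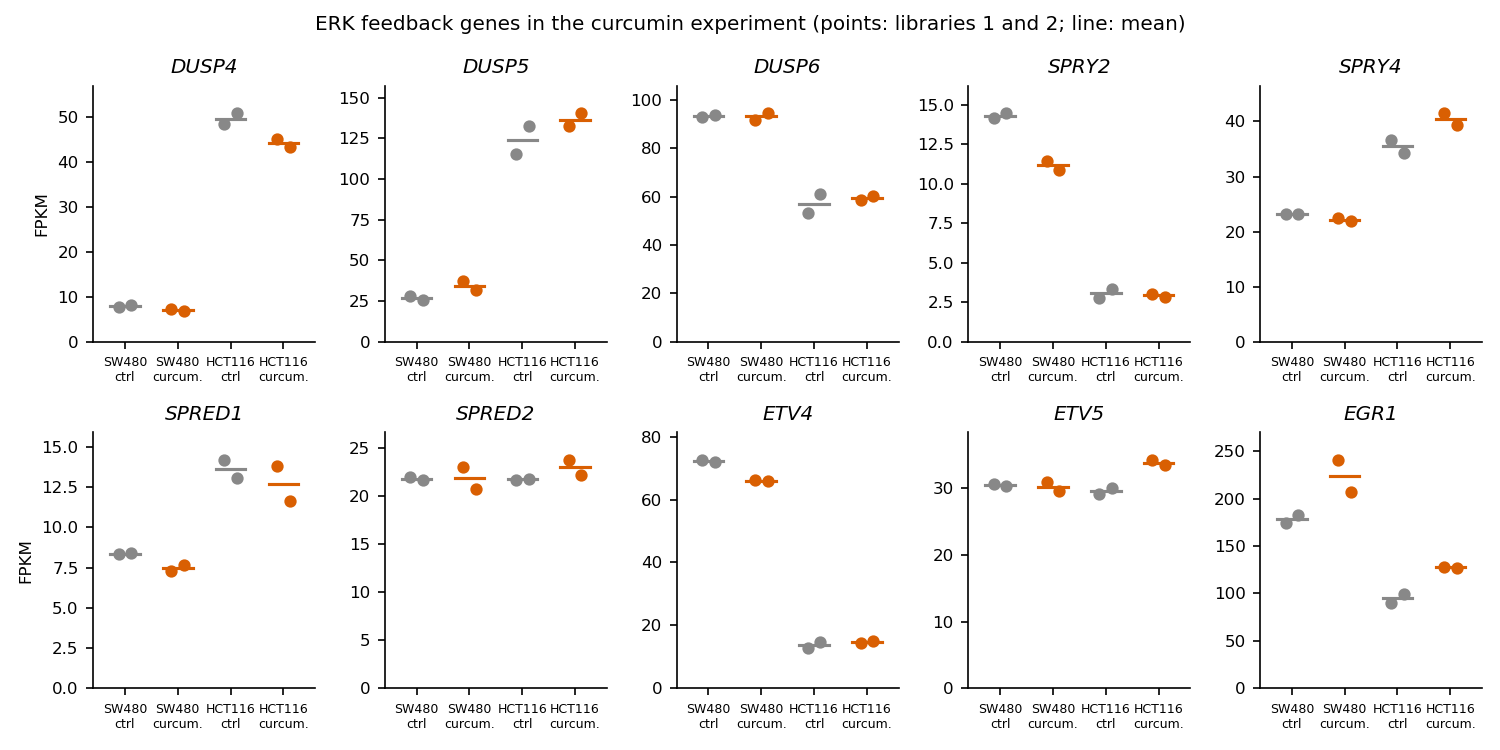
Level of each of the 10 genes in FPKM (vertical axes from 0, 1 panel per gene) in the 8 libraries of the curcumin experiment, with control libraries in grey, treated libraries in orange and the mean of each group of 2 as a line. The gap between the lines is wider than that between treated and control cells for DUSP4, DUSP5, DUSP6, SPRY2, SPRY4, SPRED1, ETV4 and EGR1, with DUSP6 near 93.2 FPKM in both SW480 groups.

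The feedback genes were then set beside 4 lists of related genes: other genes driven by ERK, other immediate early genes, other MAP kinase phosphatases, and the proteins of the cascade from receptor to ERK. With andrographis in SW480, the 18 tested ERK-driven genes had a median of -0.03 on the log2 scale, against -0.00 for all genes tested. Where 4.21% of all genes fell and 3.08% rose, 2 of the 18 fell and none rose. They were TNFRSF12A, the receptor for the cytokine TWEAK, at 63.8 ± 4.4 FPKM in controls and 34.9 ± 6.05 after treatment (log2 fold change -0.86, limma adjusted p = 0.0209), and EPHA4, an ephrin receptor, at 43.1 ± 3.54 and 26.7 ± 4.53 FPKM (-0.68, limma adjusted p = 0.0365). FOSL1, a subunit of AP-1 that accumulates when ERK is active, was at 138 ± 2.98 and 157 ± 65.2 FPKM, with the spread of the treated libraries larger than the difference. CCND1, cyclin D1, was at 317 ± 51 and 227 ± 63 FPKM with a log2 fold change of -0.50 that did not pass (limma adjusted p = 0.186), and MYC was at 88.3 ± 5.05 and 122 ± 20.1 FPKM with 0.45 (limma adjusted p = 0.0996).

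Of 19 other immediate early genes, 4 fell and 1 rose with andrographis in SW480, with a list median of -0.06. The zinc finger factor KLF2 fell by 0.87, the EGR1 relative EGR2 by 0.65, KLF6 by 0.63 and the AP-1 subunit FOS by 0.58 on the log2 scale (limma adjusted p = 0.0439, 0.0355, 0.0213 and 0.037). FOS went from 11.2 ± 0.0556 to 7.19 ± 0.833 FPKM and EGR2 from 4.68 ± 0.953 to 2.59 ± 0.104 FPKM (SD, n = 2). KLF10, a TGF-beta induced factor, rose from 106 ± 9.05 to 165 ± 1.11 FPKM, a log2 fold change of 0.64 (limma adjusted p = 0.0258). None of the 6 other MAP kinase phosphatases tested passed in limma, and their median was 0.07. At an unadjusted p below 0.05, which 26.2% of all genes reached, 1 of the 6 was called. Of 27 genes of the cascade 1 fell, EGFR, the epidermal growth factor receptor, from 30.7 ± 0.68 to 19.5 ± 2.47 FPKM (log2 fold change -0.63, limma adjusted p = 0.0273), and the list median was -0.12. Over all genes tested, 3.08% rose and 4.21% fell.

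In HCT116 the same lists are a description, since this comparison chose the set. The 18 ERK-driven genes had a median log2 fold change of 0.44, against -0.02 for all genes tested. FOSL1 went from 26.7 ± 0.618 to 82.3 ± 2.23 FPKM (log2 fold change 1.59), KCNN4, a potassium channel, from 10.9 ± 0.508 to 21.6 ± 0.0735 FPKM (0.93) and EPHA2, an ephrin receptor, from 92.8 ± 4.52 to 157 ± 3.03 FPKM (0.76). ETV1, the third member of the ETV4 and ETV5 family, went from 7.55 ± 0.253 to 3.01 ± 0.0391 FPKM (-1.09). High FOSL1, EPHA2 and DUSP5 thus stood in the same treated libraries as low DUSP6, SPRY2 and ETV1. The immediate early genes had a median of 0.17, with ZFP36, which encodes an mRNA decay factor, at 1.28, ATF3 at 0.96 and BTG2 at 0.77 against EGR2 at -0.83. The other MAP kinase phosphatases had a median of 0.23 and the cascade 0.02, with MAP2K1, the kinase MEK1, at 0.57.

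**Figure D5:**
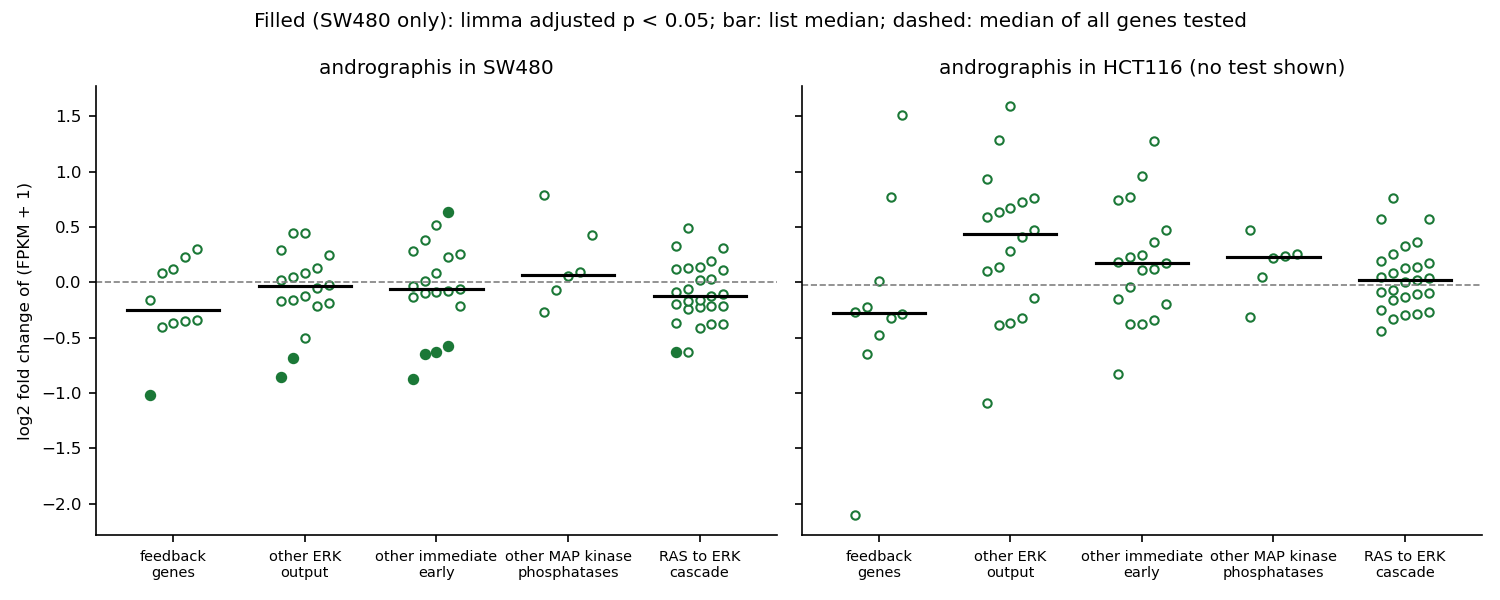
Log2 fold change of FPKM + 1 with andrographis (vertical axis, in log2 units) for each tested gene of 5 lists, in SW480 and in HCT116, with list medians as bars and the median of all genes tested as a dashed line. Filled points passed limma at an adjusted p below 0.05 and are marked in SW480 only; DUSP6 is the lowest point in both panels, at -1.02 and -2.10.

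TNFRSF12A had log2 fold changes of opposite sign in the 2 lines, -0.86 in SW480 and 0.64 in HCT116, and EGR2 of the same sign, -0.65 and -0.83. A difference between the lines was not tested. With curcumin no gene of the 4 lists passed in limma in either line. At an unadjusted p below 0.05, which 12.2% of all genes reached in SW480 and 11.8% in HCT116, 10 of 19 ERK-driven genes differed in SW480 (8 higher, 2 lower) and 7 in HCT116 (2 higher, 5 lower), 4 and 6 of 19 immediate early genes did, 0 and 0 of 6 phosphatases, and 0 and 2 of 26 cascade genes. The list medians ran from -0.02 to 0.16 in SW480 and from -0.13 to 0.01 in HCT116.

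Between the untreated lines of the curcumin experiment, 62.7% of genes differed. So did 15 of 19 ERK-driven genes, 17 of 19 immediate early genes, 5 of 6 phosphatases and 18 of 26 cascade genes. EPHA4 (log2 difference 3.32) and CCND1 (1.90) were higher in SW480 there. NR4A2 (-3.36), ATF3 (-2.45), ZFP36 (-2.45) and HMGA2 (-2.29) were higher in HCT116. In the controls of the andrographis experiment, with no test, EPHA4 was at 3.54, CCND1 at 1.77, NR4A2 at -2.72 and HMGA2 at -1.49. ZFP36 was at only -0.23 in those controls, and ATF3 was at 2.40, the opposite sign. Of the 19 immediate early genes tested in the curcumin experiment, 13 were lower in SW480 and 4 were higher. Over all genes tested 29.7% were lower and 33% were higher. The median of the 19 was -0.45, against 0.01 for all genes tested. FOS was 1 of the 4 higher in SW480, the side on which EGR1 stood (limma adjusted p = 1.05e-06 for FOS). The ERK-driven genes had 7 higher and 8 lower in SW480, the phosphatases 1 and 4, and the cascade 7 and 11.

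The genes whose level over the 8 andrographis libraries was most like that of DUSP6 were sought among 5570 genes that reached 10 FPKM in at least 2 of them, by the correlation of log2(FPKM + 1). This is a description over libraries that share treatment and line. The leading genes were ZFP62 (r = 0.961), a zinc finger gene, H2AC14 (0.958), a histone gene, PLXNA3 (0.955), a semaphorin receptor, PLCG1 (0.954), a phospholipase that acts below growth factor receptors, and ENC1 (0.951), an actin-binding protein. ENC1 was measured at 145 and 118 FPKM in SW480 controls, 98.3 and 82.9 FPKM in treated SW480, 155 and 160 FPKM in HCT116 controls and 65.7 and 62.5 FPKM in treated HCT116. Of the feedback genes that reached this level SPRY4 stood at r = 0.706 and rank 181, followed by EGR1 at 0.583 and ETV5 at 0.575. ETV4 was at 0.421 and SPRED2 at 0.123, and the other phosphatases ran the opposite way, DUSP4 at -0.511 and DUSP5 at -0.696. SPRY2 and SPRED1 lay below that level and were not ranked. Their correlations with DUSP6 were 0.872 and -0.284.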

How the data were processed

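Gene expression was measured by RNA sequencing in 16 libraries of SW480 and HCT116 cells. The deposited tables, made by the authors, hold log2(value + 1) per gene and library, and the authors' processing notes list STAR 2.7.8a, Partek 10.0.22.0121, bcl2fastq 2.20.0.422 and DESeq2, and build GRCh38, without roles. Counting tool and unit are not given in the sources used here. Instead, the unit was read from the values: 2 to the power of the value, minus 1, gave whole multiples of 1 step per gene in low microRNA genes, as FPKM does, for 100% of 350 values with andrographis and 98.5% of 1829 with curcumin (up to 20 reads, within 0.01 of a read number relative to it). The base of the logarithm was read the same way, since base e gave 41.1% and 33.3% and base 10 gave 40.1% and 40.2%. The steps also gave the approximate depth. The reads were not used here, and no count test was run.

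From the deposited log2 values, FPKM was recovered and log2(FPKM + 1), with a pseudocount of 1, was fitted with limma 3.58.1 in R 4.3.3 (lmFit, then eBayes with trend), separately for each experiment, with 4 group means over its 8 libraries and no block. Genes at 1 FPKM or more in at least 2 libraries were tested, 12811 with andrographis and 16341 with curcumin, and all 10 members passed this filter in both. P-values were adjusted by Benjamini-Hochberg over all genes tested, and called means an adjusted p below 0.05. The procedure was also run on simulated data for the SW480 comparisons. There each gene had the same spread in all groups, unlike the andrographis data, so nothing is read from it about the pooled spread. Tables and figures were made with matplotlib 3.10.9 and pandas 2.3.3 in Python 3.11.15. The 10 members and the gene lists, which were drawn from general knowledge, were chosen with earlier results of these data known. The text names all members, up to 4 called genes per list and comparison, and the 5 genes most correlated with DUSP6, except that 1 result is not reported here. With andrographis, FOSL1, CCND1 and MYC in SW480 and TNFRSF12A in HCT116 fall outside that rule and were named after their values were seen. Alternatives were another pseudocount (0.1 or 10), no filter or a filter at 10 FPKM, libraries scaled to the same median, no trend, protein-coding genes only, only the groups compared, the threshold of the methods (unadjusted p below 0.05 with an absolute log2 fold change above 0.5), a replicate block and each library left out. Promoters came from RefSeq, build GRCh38.p14.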

Additional observations from a re-analysis of the deposited data

Results flagged for a closer look

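SPRED1 and SPRED2 had treated libraries on opposite sides of their controls in the 2 lines with andrographis, above both controls in SW480 and below both in HCT116. The log2 fold change in SW480 minus that in HCT116 was 0.45 for SPRED1 (0.23 and -0.22) and 0.57 for SPRED2 (0.30 and -0.27). These differences were not tested, since the HCT116 comparison was used to choose the genes, and neither SW480 value passed on its own. In HCT116 both treated libraries lay below both controls for 7 members of the set, SPRED1 and SPRED2 among them. In SW480 they lay above for these 2 and below for 2 others, and the groups overlapped for 6. The share of all genes with treated libraries on opposite sides in the 2 lines was not counted, so nothing is read from this pattern.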

How the results depend on the processing

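The fall of DUSP6 with andrographis in SW480 kept its direction under every alternative run, from -1.28 to -0.76 on the log2 scale with 1 library left out, but not its call. The count of genes lower in that comparison was 0 with no filter and 0 with only the groups compared (DUSP6 -1.02 in both, limma adjusted p = 0.0803 and 0.306), settings under which 0.698% and 0% of all genes were lower. With 1 library left out it ran from 0 to 1, as did the count of genes higher, while from 0.663% to 13% of all genes were lower and from 0.367% to 10.2% higher. With the replicate block it was 1, and DUSP6 stood at -1.02 (limma adjusted p = 0.0231). The labels do not say that a replicate number marks a shared culture, and the libraries deviated together only in SW480 controls and treated cells of the andrographis experiment (r = 0.56 over 12811 genes), with r from -0.03 to 0.11 for other pairs there and from 0.03 to 0.2 with curcumin. The block changed 1 count of members, that of genes higher in HCT116 with andrographis.

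In HCT116 with andrographis, where the values are a description, the count of the 10 genes higher was 2 at the threshold of the methods (4.18% of all genes), 1 with the replicate block (2.65%), 1 with a filter at 10 FPKM (4.53%), 1 with a pseudocount of 10 (4.34%), 1 with protein-coding genes only (3.64%) and 2 with only the groups compared (17.9%), against 0 before. The count lower was 2 at the threshold of the methods (5.01%) and 6 with only the groups compared (20.4%), and ran from 0 to 1 with 1 library left out (0.125% to 0.32%). Nothing is read from these counts, since this comparison chose the set. With curcumin in SW480 1 gene was lower with a pseudocount of 10, SPRY2 at -0.20, where 0.863% of all genes were.

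The cause of these changes was not tested. Values near 0 changed sign. With libraries scaled to the same median, DUSP6 and ETV5 were at 0.03 and 0.01 with curcumin in SW480, SPRED2 and ETV5 at -0.05 and -0.01 between untreated lines, and the line difference of the curcumin change of DUSP4 at 0.00, which was 0.06 with a pseudocount of 10. With 1 library left out, the andrographis change in SW480 ran from -0.48 to 0.72 for DUSP5, -0.70 to 0.02 for SPRY2, -0.10 to 0.26 for ETV5 and -0.82 to 0.02 for EGR1, and that of ETV4 in HCT116 from -0.06 to 0.08. The curcumin change in SW480 ran from -0.02 to 0.02 for DUSP6, -0.07 to 0.08 for SPRED2 and -0.05 to 0.02 for ETV5, and in HCT116 from -0.04 to 0.16 for DUSP6, -0.15 to 0.05 for SPRY2 and -0.21 to 0.02 for SPRED1. SPRED2 between untreated lines ran from -0.01 to 0.01. The line difference of the curcumin change ran from -0.04 to 0.04 for DUSP4, -0.16 to 0.04 for DUSP6, -0.16 to 0.07 for SPRED1, -0.14 to 0.00 for SPRED2 and -0.21 to 0.01 for EGR1. Of the other member values without a library left out, 505 stayed the same. Where a test was used, this meant direction and side of the threshold. For HCT116 with andrographis it meant direction and a move smaller than the spread between replicates, and 12 values there moved by more. Each group has 2 libraries, and the depths are approximate.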
